A study of Arundo donax with 12 samples.

Results

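The roots of giant reed (Arundo donax, a perennial grass grown for biomass on poor and polluted land) were compared between soil with and without cadmium nitrate. The members are the 6 root libraries of the 12 libraries of the study, 3 of the treated group Cd_R and 3 of the control group CK_R, and the other 6 libraries are leaves of the same treatments. All plants were of the G10 ecotype and grew in the open air in pots of clay soil, with 1 stem node planted per pot, for 3 months. Cd_R pots received cadmium nitrate at 4 mg/kg, and CK_R pots received ammonium nitrate to balance the nitrogen, so that cadmium and the form of the nitrogen cannot be told apart. A replicate is a pot, and the pots stood in randomised blocks whose membership the sources do not link to the libraries. Age, ecotype and soil were shared by both groups.

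No genome sequence was used. The authors assembled the reads of the poly-A libraries into unigenes (the longest transcript of each cluster of assembled sequences) and counted reads per unigene, and values here are given in CPM (counts per 1000000 counts of a library) scaled by TMM, a normalization that assumes most unigenes to be alike. Leaf values are CPM of library totals, without TMM. Root libraries held 22157170 to 25239842 counts, and 1 CPM stands for a mean of 23.4 counts. Of 126668 unigenes, 123512 had a count in some root library, and edgeR, with its own filter on low counts, tested 55317. In bulk tissue, fewer cells of a type and less RNA per cell cannot be told apart. A read from a near-identical copy can be assigned to either unigene. Values of unigenes with like annotation and close numbers, such as Cluster-14691.15297 and Cluster-14691.15298, are therefore uncertain. Whether these are copies was not tested, since no sequences were compared.

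Cadmium is a toxic metal without a known nutritional role in land plants. It enters root cells through carriers of nutrient metals such as iron and zinc, among them NRAMP proteins, and P-type ATPases such as HMA3 pump it into the vacuole, where it is held away from the cytosol. Cadmium displaces other metals and depletes glutathione, which raises reactive oxygen species, and superoxide dismutase, ascorbate peroxidase, catalase and glutathione S-transferases remove these or their products. Roots exposed to cadmium also alter hormone signalling, cell walls and the uptake of nitrate and phosphate in many species.

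A pair of root libraries stood apart from the others before any comparison of treatments. Unigenes with a count numbered 87750, 81443 and 100351 in CK_R replicates 1 to 3 and 105247, 85647 and 87003 in Cd_R replicates 1 to 3, so that CK_R replicate 3 and Cd_R replicate 1 had the most. Across the unigenes tested, deviations from the group mean correlated at 0.626 between these libraries, and Cd_R replicate 1 correlated with CK_R replicate 3 at 0.936 on the log2 scale but with its own group at 0.891 and 0.893. These correlations are a description over unigenes, which are not replicates. All results are therefore given with the values of each library, and 8898 unigenes counted almost only in one or both of these libraries are described apart from the rest, at the end.

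The labelled tissue could be checked against a few unigenes only, which the study itself had picked as differing between treated root and treated leaf. Of these, 5 annotated as precursors of CEP (C-terminally encoded peptides, root-made signals) had no count in any of the 6 leaf libraries, and nitrate transporter 2.5 (Cluster-14691.17907) had 0.119 to 1.24 CPM in leaf and 1.12 to 30.1 CPM in root. The CEP precursors were thus counted in root only, although they are near 0 in some root libraries too. For nitrate transporter 2.5 the ranges of leaf and root overlapped, so that it does not separate every library by tissue.

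Between Cd_R and CK_R, no unigene met the limits of a differentially expressed gene (DEG) in edgeR, an adjusted p up to 0.05 with a difference of 2-fold or more. The quasi-likelihood test of edgeR called 0 of 55317 unigenes (0%), and all its adjusted p values (Benjamini-Hochberg) lay between 0.999 and 1. Its unadjusted p was under 0.05 for 2555 unigenes (4.62%), of which 993 were higher in Cd_R (1.8%) and 1562 lower (2.82%). Because the adjusted p did not separate any unigene from another, unadjusted p values are given below as a ranking, and no unigene is said to have risen or fallen.

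DESeq2 was run on the same rounded counts. With default settings it called 186 of 42458 unigenes (0.438%), 58 higher and 128 lower in Cd_R. Without independent filtering, it called 107 of 119042 unigenes (0.0899%), 36 higher and 71 lower. When Cook's filter, which withholds unigenes with an outlying library, was also switched off, the count was 2213 of 123512 unigenes (1.79%), and most calls were then on the higher side, with 1957 higher and 256 lower. Of those 1957 unigenes, 1861 (95.1%) were counted almost only in Cd_R replicate 1, and 32 of the 256 were counted almost only in CK_R replicate 3. None of the 186 calls of the default settings belonged to either set.

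Most differences were small. The median log2 fold change, Cd_R minus CK_R, was −0.02, and 5% of the unigenes tested lay below −1.12 and 5% above 0.85. Values were higher in Cd_R for 26681 unigenes (48.2%). A difference of 2-fold or more was seen for 1961 unigenes on the higher side (3.55%) and for 3475 on the lower side (6.28%). On the higher side, the 3 Cd_R libraries all lay above the 3 CK_R libraries for only 687 of the 1961, and on the lower side the groups were apart for 976 of the 3475. Groups that did not overlap, whatever the fold, numbered 2785 on the higher side (5.03%) and 2545 on the lower side (4.6%). When libraries were scaled to their totals in place of TMM, these became 4606 and 1508, with a shift of 0.161 in the median log2 fold change, so that the split between directions depends on the scaling.

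The size and the direction of the differences went with the level of a unigene. Below a mean of 1 CPM, 6.42% of 10017 unigenes were at least 2-fold higher in Cd_R and 7.61% at least 2-fold lower. Between 10 and 100 CPM the shares were 2% and 4.89% of 15530 unigenes. Among the 1596 unigenes at 100 CPM or above, 2.07% were at least 2-fold higher and 9.21% at least 2-fold lower, the median was −0.15, and the groups did not overlap for 3.82% on the higher and 9.27% on the lower side. On the TMM scale, the most abundant root unigenes were thus more often lower than higher in Cd_R.

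**Figure D1:**
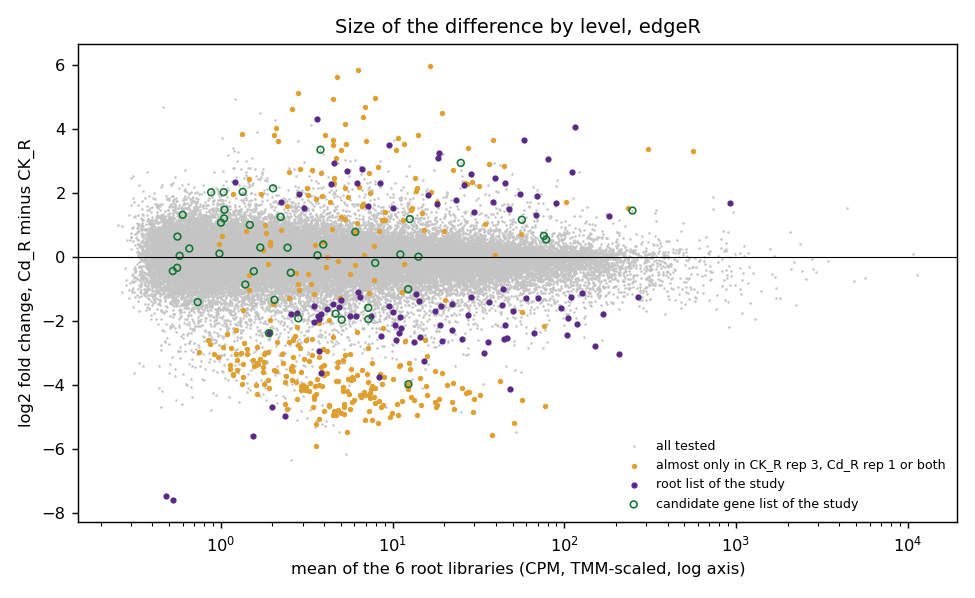
Log2 fold change of Cd_R minus CK_R from edgeR (vertical axis) against the mean of the 6 root libraries in CPM (horizontal log axis). Each grey point is 1 of the 55317 unigenes tested, and coloured points mark unigenes counted almost only in CK_R replicate 3, Cd_R replicate 1 or both, the root list of the study and its candidate genes. Grey points are centred near 0, and the root list lies at the edges of the cloud, since it was selected for its difference.

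The spread between replicates was wide and uneven. The common biological coefficient of variation was 0.487. CK_R replicate 2 was most often the highest of the 6 libraries, for 12110 unigenes (21.9%), and most often the lowest, for 12329 (22.3%). Cd_R replicate 1 came next, as the highest for 10699 (19.3%) and the lowest for 11420 (20.6%), and Cd_R replicate 3 was last, with 4923 (8.9%) and 5637 (10.2%). A value at least 4-fold above both other libraries of its group was seen for 478, 345 and 1025 unigenes in CK_R replicates 1 to 3 and for 1363, 33 and 213 in Cd_R replicates 1 to 3. Values at least 4-fold below both others numbered 558, 956 and 867 in CK_R and 1558, 359 and 49 in Cd_R. Departures of 4-fold from the own group were therefore most frequent in Cd_R replicate 1 in both directions, and Cd_R replicates 2 and 3 were the most alike pair of root libraries, with a correlation of 0.964.

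Quantitative PCR was run in root on 4 unigenes, with a cyclin-dependent kinase as reference. The primers are given below as the study lists them, all written 5′ to 3′. Their positions in the assembled unigenes were not located. No capitals are used because no part is singled out.
Cluster-14691.18708 forward: cggcattggcgggtataaag
Cluster-14691.18708 reverse: attatcgccgccaccagag
Cluster-14691.76303 forward: gttctacacctgctccgacg
Cluster-14691.76303 reverse: cgatagcacgtacgaggacc
Cluster-14691.49288 forward: atccacgtcaggttctacgg
Cluster-14691.49288 reverse: gggatcacgccgtagtagag
Cluster-14691.50971 forward: catcgacttctaccccgtcg
Cluster-14691.50971 reverse: gtagtagtcgtggcggtcg
Cluster-14691.35187 forward: catacgggcaagtgttcatgg
Cluster-14691.35187 reverse: tccttgagctggatgacgttc

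The reference, Cluster-14691.35187, is annotated as a cyclin-dependent kinase, which the paper names CDKC-2 and used as a housekeeping gene. The reference was counted at 28.7, 29.9 and 29.2 CPM in CK_R and at 26.5, 28.4 and 29.3 CPM in Cd_R. It was the steadiest of the 5, with a log2 fold change of −0.06 (SE 0.17), which became 0.10 with library totals. Cluster-14691.18708, listed under the name Glycine, had 1.87, 5.06 and 1.18 CPM in CK_R and 15.3, 10.2 and 9.57 CPM in Cd_R, without overlap (log2 fold change 2.12, SE 0.57, unadjusted p 0.00804). Cluster-14691.76303, an ABC transporter (a family of ATP-driven membrane pumps), had 36.7, 153 and 52.8 CPM in CK_R and 20.2, 23.4 and 21.6 CPM in Cd_R. Its groups did not overlap either, but the CK_R values spanned several-fold and the log2 fold change of −1.90 (SE 0.54) became −1.04 at its smallest when a library was left out. The xylanase Cluster-14691.49288, of an enzyme class that cuts xylan in cell walls, was one of the abundant unigenes, with 1579, 1078 and 857 CPM in CK_R and 611, 526 and 595 CPM in Cd_R (log2 fold change −1.02, SE 0.32). Cluster-14691.50971, sucrose 1-fructosyltransferase, which starts the synthesis of fructans from sucrose, overlapped between groups, with 22.2, 1.99 and 12.6 CPM in CK_R against 2.02, 2.4 and 5.23 CPM in Cd_R.

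The root list of the study holds 107 unigenes chosen on these same libraries for their difference, so that its directions and p values are a description and no independent evidence. DESeq2 without independent filtering called the same 107 unigenes here. Of the 107, 36 were higher in Cd_R and 71 lower, and the groups were apart in all 107. edgeR tested 106, with unadjusted p from 8.38e-05 to 0.0105 and a median log2 fold change of −1.54, beside −0.02 over all unigenes tested. None was counted almost only in CK_R replicate 3 or Cd_R replicate 1. The highest of the 6 libraries was CK_R replicate 1 in 23, replicate 2 in 28 and replicate 3 in 20, and Cd_R replicate 1 in 10, replicate 2 in 22 and replicate 3 in 4. The list gives no gene ontology (GO) terms for 37 of its unigenes, and the others were grouped by their terms, some under more than 1 group.

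Unigenes with calcium-dependent phospholipid binding, the property of annexins, were all lower in Cd_R, 3 of 3. Annexins are proteins that attach to membranes when calcium rises, and in plants they take part in calcium signalling and responses to stress. Cluster-14691.43929 was counted at 448, 314 and 349 CPM in CK_R and at 39.8, 30.1 and 66.9 CPM in Cd_R, the second lowest p of all unigenes tested on the lower side (log2 fold change −3.02, SE 0.37, unadjusted p 0.000105). Cluster-14691.43927 had 203, 222 and 97.4 CPM in CK_R and 27.3, 20.2 and 49.5 CPM in Cd_R, with the highest Cd_R value again in replicate 3. The third, Cluster-14691.50895, had 173, 159 and 190 CPM against 84.1, 67.4 and 85.8 CPM, with a smaller log2 fold change of −1.14 (SE 0.21). Reads of Cluster-14691.43929 and Cluster-14691.43927, which lie close in the numbering, may be shared. The CK_R replicate 3 and Cd_R replicate 1 values of all 3 lay with their groups, as in the whole root list, which was chosen for its difference.

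Of 5 unigenes with proteolysis terms, 4 were lower in Cd_R. Cluster-14691.41563, a cysteine-type peptidase of the kind that degrades proteins in vacuoles and during senescence, had 166, 351 and 272 CPM in CK_R and 23, 14.3 and 77.1 CPM in Cd_R. Cluster-14691.12025, of the same type, had 28.3, 98.5 and 56 CPM against 5.35, 4.03 and 13.3 CPM (log2 fold change −3.01, SE 0.64). The serine carboxypeptidase Cluster-14691.36055 was lower and steadier, with 6.51, 7.05 and 8.2 CPM against 3.09, 1.93 and 2.37 CPM. The exception was Cluster-14691.37347, a further cysteine-type endopeptidase, with 1.35, 6.86 and 2.52 CPM in CK_R and 21.3, 58.7 and 20.7 CPM in Cd_R (log2 fold change 3.23, SE 0.74). Members of 1 enzyme class thus differed in opposite directions.

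All 4 unigenes with lipid metabolism terms and all 3 hydrolases of ester bonds were lower in Cd_R, with 1 unigene in both groups. That unigene, Cluster-14691.74477, had 67.1, 118 and 53 CPM in CK_R and 5.88, 14.2 and 20.7 CPM in Cd_R. Cluster-14691.50407 and Cluster-14691.50408, neighbours in the numbering, had 249, 147 and 182 CPM against 32.5, 32.9 and 70.4 CPM, and 45.6, 18.4 and 36.6 CPM against 3.33, 3.3 and 9.75 CPM. In both, the ranking of the libraries was nearly the same. Cluster-14691.60510 had the narrowest spread of the 4, with 16.3, 20.3 and 25.3 CPM against 8.1, 7.94 and 7.92 CPM. The ester-bond hydrolases Cluster-14691.27031 (24.9, 117 and 44.6 CPM against 12.2, 7.16 and 10.1 CPM) and Cluster-14691.15264 (18.1, 84 and 29 CPM against 9.63, 6.48 and 5.86 CPM) shared a high value in CK_R replicate 2.

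Proton-pumping pyrophosphatases, which use pyrophosphate to acidify the vacuole and so energise transport across its membrane, were higher in Cd_R, 2 of 2. Cluster-14691.15297 had 19.8, 10.9 and 15.4 CPM in CK_R and 54.9, 96.5 and 74.6 CPM in Cd_R, the lowest p of all unigenes tested on the higher side (log2 fold change 2.29, SE 0.33, unadjusted p 0.000251). Cluster-14691.15298 ranged more widely, with 5.73, 32.5 and 13.6 CPM against 72.8, 259 and 95.9 CPM (log2 fold change 3.05, SE 0.78). Both carry phosphatase terms as well, and the other 2 phosphatases of the list were lower, Cluster-14691.48128 with 89.9, 62.3 and 79.9 CPM against 27.7, 14.5 and 29.1 CPM and Cluster-14691.50233 with 349, 186 and 246 CPM against 98.6, 42.3 and 84.3 CPM.

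Of the 3 protein kinases, 2 were higher in Cd_R and 1 lower. Protein kinases pass signals on by phosphorylating other proteins. Cluster-14691.42544 had 10.4, 8.46 and 8.25 CPM in CK_R and 57.9, 45.2 and 26 CPM in Cd_R (log2 fold change 2.25, SE 0.33, unadjusted p 0.000314). Cluster-14691.47350 went the other way, from 17.5, 10.3 and 15.9 CPM to 1.81, 2.75 and 3.27 CPM (log2 fold change −2.48, SE 0.34). Cluster-14691.63647 stayed low in all libraries, at 0.955, 0.875 and 1.34 CPM against 3.78, 3.69 and 2.86 CPM.

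**Figure D2:**
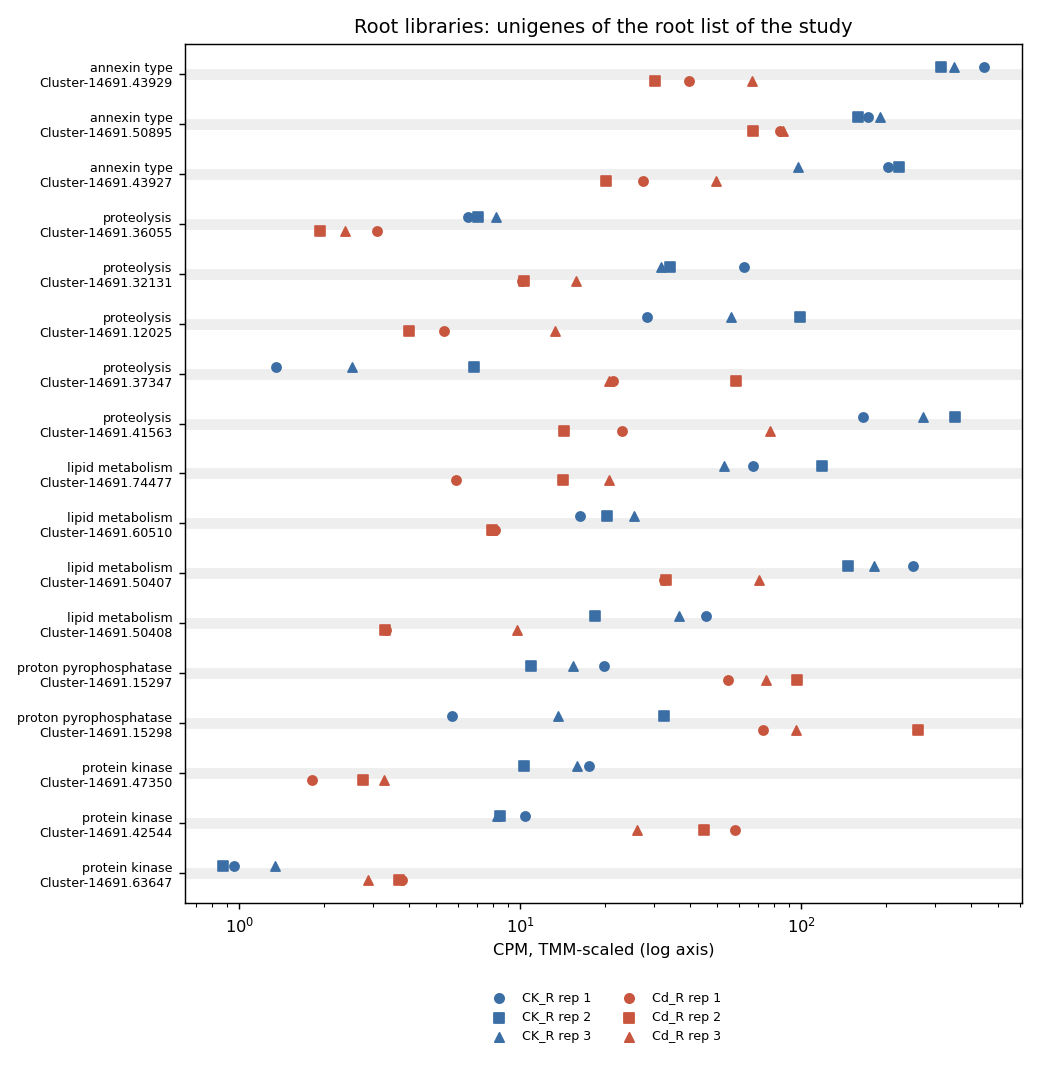
CPM of each root library (horizontal log axis) for named unigenes of the root list with annexin, proteolysis, lipid, proton pyrophosphatase and protein kinase terms. Blue symbols are CK_R and red symbols Cd_R, with a shape for each replicate. The groups do not overlap for any unigene, which the selection of the list fixes. CK_R replicate 3 and Cd_R replicate 1 (blue triangles and red circles) therefore lie among their own groups.

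Oxidation-reduction was the largest of the enzyme groups, with 8 of 10 unigenes lower in Cd_R. Among 4 unigenes with the terms of cytochrome P450 enzymes, which oxidise hormones, defence compounds and foreign chemicals, 3 were lower. Cluster-14691.29244 had 145, 169 and 186 CPM in CK_R and 34.1, 36.7 and 62.6 CPM in Cd_R (log2 fold change −1.90, SE 0.30). The P450-type unigene on the higher side, Cluster-14691.54609, rested mostly on Cd_R replicate 1, with 0.868, 1.7 and 2.07 CPM in CK_R and 35, 13.2 and 4.52 CPM in Cd_R (log2 fold change 3.50, and 2.80 without that library and CK_R replicate 3). The most abundant named unigene of the group was Cluster-14691.49342, which also has a potassium transport term, with 428, 439 and 446 CPM in CK_R and 1039, 1567 and 1582 CPM in Cd_R (log2 fold change 1.67, SE 0.29). Its CK_R values differed little from each other. Cluster-14691.34526, with copper transport terms, had 105, 32 and 91.4 CPM against 15.4, 8.15 and 14.9 CPM.

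The transport terms were split, with 5 of 12 unigenes higher and 7 lower in Cd_R. Cluster-14691.8219, with a malate transport term, had 3.56, 1.75 and 3.13 CPM in CK_R and 16.2, 17.5 and 8.41 CPM in Cd_R (log2 fold change 2.32, SE 0.41). The other unigene of the list with a malate transport term was lower in Cd_R, so that this term went in both directions. Malate released by roots binds metal ions in soil. Cluster-14691.34207, a membrane transporter without a named substrate, had 13.6, 5.69 and 4.83 CPM against 40.4, 56.2 and 50.1 CPM. A channel, Cluster-14691.50761, was on the lower side, with 14, 16.8 and 15.6 CPM against 6.42, 3.6 and 4.03 CPM.

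Both DNA replication unigenes and both nucleoside metabolism unigenes were lower in Cd_R. Cluster-14691.47226, with helicase and DNA repair terms, had 97.7, 39.3 and 85.1 CPM in CK_R and 25.9, 12 and 12.8 CPM in Cd_R. Cluster-14691.21434, a single-stranded DNA binding protein of the kind that protects unwound DNA, had 26.5, 10.8 and 9.02 CPM against 2.51, 0.257 and 0.626 CPM, and its log2 fold change of −3.76 (SE 0.89) was −5.39 without Cd_R replicate 1 and CK_R replicate 3. For Cluster-14691.37387, with a nucleoside term, the values were 29.6, 42.8 and 19.9 CPM against 7.12, 7.46 and 6.53 CPM. Of the 2 ribosomal unigenes, Cluster-14691.6800 had 1.09, 0.681 and 1.1 CPM in CK_R and no count in Cd_R, which is at least 22.3-fold lower when 3 counts in all of Cd_R are taken as the floor.

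Of 6 transcription unigenes of the root list, 5 were tested, with 1 higher and 4 lower in Cd_R. Cluster-14691.22802, a DNA-binding transcription factor by its terms, had 28.3, 34 and 26 CPM in CK_R and 66.1, 168 and 92.1 CPM in Cd_R (log2 fold change 1.89, SE 0.38). Cluster-14691.30322 was on the lower side with little spread, at 5.69, 5.4 and 4.51 CPM against 1.65, 1.93 and 1.74 CPM. Cluster-14691.27999, described below, is in both this list and that of the candidate genes. Over all unigenes of the study, the lowest p belonged to a unigene of the root list without a GO term, Cluster-14691.54287, with 26.7, 23.8 and 18.8 CPM in CK_R and 2.51, 3.52 and 4.83 CPM in Cd_R (log2 fold change −2.68, SE 0.32, unadjusted p 8.38e-05).

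The candidate genes of the study are 56 unigenes picked from its comparison of treated root with treated leaf, which shares the Cd_R libraries with the comparison of treatments. Unigenes that also differed between control root and control leaf had been taken out of that comparison. A difference between Cd_R and CK_R in the direction of the selection is thus partly built in, and the counts below are a description only. Of these, 44 were tested here, 28 with values higher in Cd_R and 16 lower, with a median log2 fold change of 0.27 beside −0.02 over all unigenes. An unadjusted p under 0.05 was found for 8 of the 44, 5 higher and 3 lower, beside 4.62% of all unigenes tested, 1.8% higher and 2.82% lower. One candidate was counted almost only in CK_R replicate 3 and 3 almost only in CK_R replicate 3 and Cd_R replicate 1 together.

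The 2 metal carriers among the candidate genes, Nramp1 and HMA3, were near 0 in both groups. Nramp1 (Cluster-27204.0), of the family that carries iron, manganese and cadmium into cells, had 0.651, 0.778 and 0.366 CPM in CK_R and 0.74, 0.643 and 0.76 CPM in Cd_R, with overlap and a log2 fold change of 0.26 (SE 0.43) that was −0.01 without CK_R replicate 3 and Cd_R replicate 1. HMA3 (Cluster-14691.35424), the vacuolar cadmium and zinc pump, had 0.13, 0 and 0.284 CPM in CK_R and 0, 0.0429 and 0.0895 CPM in Cd_R and was not tested. Nramp1 rested on 40 counts in CK_R and 50 in Cd_R, and no difference was seen at this depth.

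Unigenes for the removal of reactive oxygen species followed the libraries that stood apart more than the treatment. Ascorbate peroxidase 3 (Cluster-14691.24413), which reduces hydrogen peroxide with ascorbate, was the one tested unigene of this category whose groups did not overlap, with 10, 4.28 and 3.01 CPM in CK_R and 96.9, 25.3 and 10.4 CPM in Cd_R (log2 fold change 2.94, SE 0.90, unadjusted p 0.0146). Its highest value was that of Cd_R replicate 1, and without this library and CK_R replicate 3 the log2 fold change was 1.32. NADPH oxidase 1 (Cluster-14691.12641), an enzyme that makes superoxide outside the cell, was counted almost only in CK_R replicate 3, with 1.56, 0 and 68.3 CPM in CK_R and 3.91, 0 and 0.492 CPM in Cd_R. Its log2 fold change was −3.98 (SE 2.36) and turned to 0.89 without CK_R replicate 3.

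Superoxide dismutase, glutathione S-transferase and catalase were counted almost only in CK_R replicate 3 and Cd_R replicate 1 together. Superoxide dismutase (Cluster-14691.9595), which turns superoxide into hydrogen peroxide, had 0, 0 and 2.68 CPM in CK_R and 2.88, 0.214 and 0.313 CPM in Cd_R. Glutathione S-transferase (Cluster-14691.9539), which couples glutathione to toxic compounds, had 0.0434, 0.194 and 13.2 CPM in CK_R and 21, 0.257 and 1.79 CPM in Cd_R, and its log2 fold change of 0.78 was −2.12 without Cd_R replicate 1. Catalase (Cluster-10504.0), which splits hydrogen peroxide, had 0, 0 and 6.13 CPM in CK_R and 2.43, 0.0858 and 0.0895 CPM in Cd_R. The sixth unigene, glutaredoxin-C5 (Cluster-14691.81808), had the same 2 libraries on top, with 0.0434, 0.146 and 1.46 CPM in CK_R and 3.83, 0.429 and 0.403 CPM in Cd_R, and its log2 fold change of 1.47 was −0.41 without Cd_R replicate 1. In 5 of the 6 unigenes, the 2 highest of the 6 libraries were CK_R replicate 3 and Cd_R replicate 1, which belong to different treatments.

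The same was seen for nutrient uptake, where 4 of 5 unigenes had values higher in Cd_R and none had an unadjusted p under 0.05. Nitrate transporter 2.5 (Cluster-14691.17907), a high-affinity carrier used when nitrate is scarce, had 1.26, 1.12 and 30.1 CPM in CK_R and 26.2, 2.96 and 5.05 CPM in Cd_R, with a log2 fold change of 0.08 that ranged from −1.43 to 3.26 when a library was left out. Phosphate transporter 1.7 (Cluster-14691.51441) had 4.43, 12.1 and 25.9 CPM against 26, 8.06 and 8.5 CPM, with a log2 fold change of 0.00 that ranged from −0.76 to 0.80 when a library was left out. Phosphate transporter 1.4 (Cluster-14691.45899) had 52.1, 33.8 and 106 CPM against 174, 49.8 and 55.2 CPM, and its log2 fold change of 0.54 (SE 0.62) was −0.28 without Cd_R replicate 1. CK_R replicate 3 and Cd_R replicate 1 were the 2 highest libraries for each of these 3 transporters. Nitrate reductase 1 (Cluster-14691.36103), which makes nitrite from nitrate, had 24.8, 33.9 and 46.3 CPM against 160, 32.7 and 41.6 CPM, and its log2 fold change of 1.16 (SE 0.64) was 0.35 without both libraries. The vacuolar iron transporter 1 (Cluster-14691.23657) was highest elsewhere, with 2.17, 2.29 and 0.934 CPM against 0.411, 1.29 and 1.25 CPM.

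**Figure D3:**
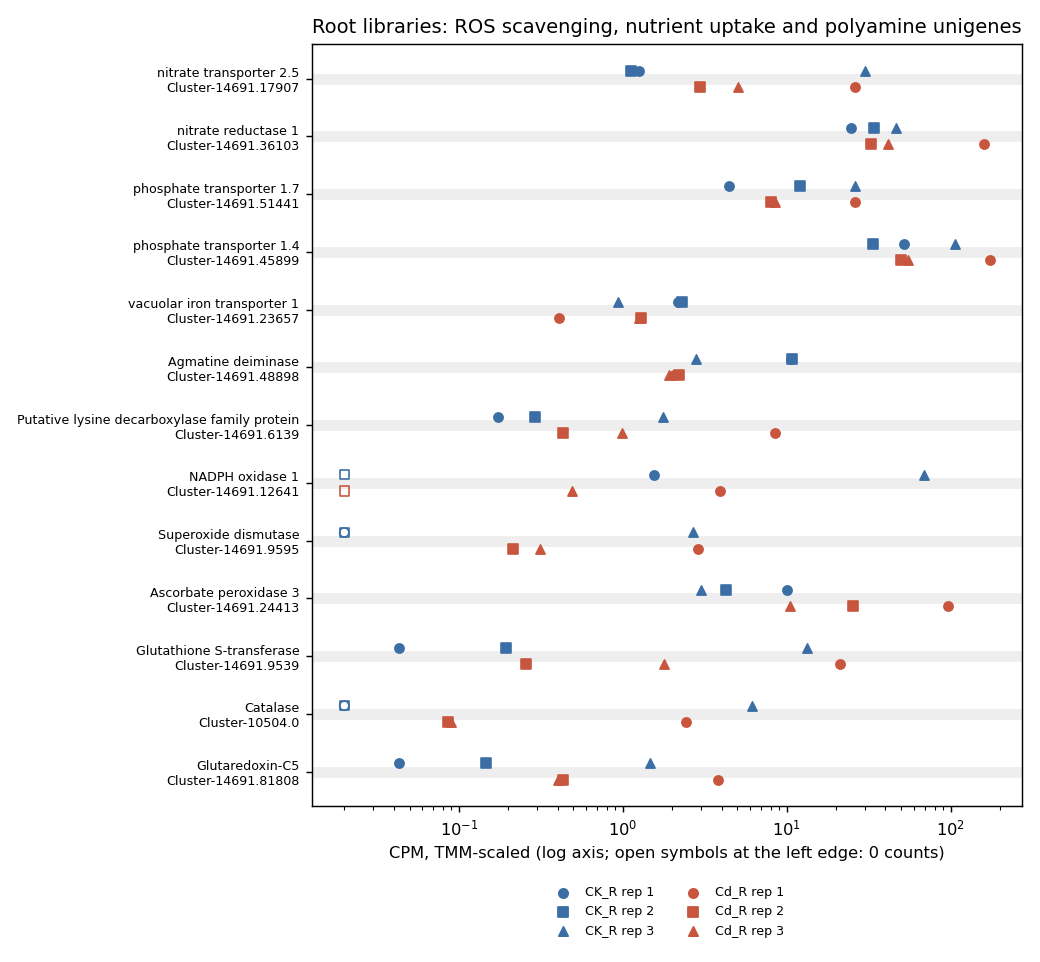
CPM of each root library (horizontal log axis) for candidate genes of nutrient uptake, polyamine metabolism and the handling of reactive oxygen species. Blue symbols are CK_R and red symbols Cd_R, with a shape for each replicate, and open symbols at the left edge are counts of 0. For nitrate transporter 2.5, superoxide dismutase, glutathione S-transferase and catalase, the rightmost symbols are the blue triangle of CK_R replicate 3 and the red circle of Cd_R replicate 1.

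Of 9 hormone candidates tested, 5 had values higher in Cd_R and 4 lower, and 2 had an unadjusted p under 0.05, both on the higher side. Auxin efflux carrier component 9 (Cluster-14691.13200), of the PIN family that moves auxin out of cells, had 0.955, 0.292 and 0.325 CPM in CK_R and 2.26, 1.76 and 2.46 CPM in Cd_R (log2 fold change 2.03, SE 0.55, unadjusted p 0.00803). Abscisic acid 8'-hydroxylase 1 (Cluster-14691.50813), the P450 that begins the breakdown of abscisic acid, had 195, 53 and 153 CPM against 422, 457 and 215 CPM (log2 fold change 1.45, SE 0.53, and 1.44 without CK_R replicate 3 and Cd_R replicate 1). Both showed the groups apart. For abscisic acid synthesis, the nine-cis-epoxycarotenoid dioxygenase (Cluster-14691.43609) overlapped, with 2.73, 0.146 and 5.97 CPM in CK_R and 1.93, 0.429 and 1.12 CPM in Cd_R. Gibberellin 20-oxidase 2 (Cluster-14691.11833), a late enzyme of gibberellin synthesis, had 5.3, 9.43 and 8.41 CPM against 6.25, 25.8 and 20.4 CPM, where Cd_R replicate 1 lay within the CK_R range. The auxin synthesis enzyme YUCCA2 (Cluster-14691.49474) had 6.29, 0.486 and 6.66 CPM against 2.39, 0.429 and 0.716 CPM.

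The wider hormone list of 55 unigenes was drawn from treated root and leaf in the same way, so that its directions are a description only. Of the 55, 47 were tested, with 30 values higher in Cd_R and 17 lower, 7 and 1 of them with an unadjusted p under 0.05. Over all unigenes tested, 48.2% had values higher in Cd_R, and 1.8% and 2.82% had such a p on the higher and the lower side. The one on the lower side was allene oxidase cyclase (Cluster-14691.51153), which closes the ring of the jasmonate precursor, with 595, 460 and 246 CPM in CK_R and 139, 105 and 187 CPM in Cd_R (log2 fold change −1.59, SE 0.40, unadjusted p 0.00578). On the higher side, an ACC oxidase (Cluster-14691.30304), which makes ethylene, had 21.9, 24.2 and 23.4 CPM against 38.5, 32.3 and 52.8 CPM (log2 fold change 0.83, SE 0.24). Another ACC oxidase, Cluster-14691.52687, overlapped, with 46.1, 84.5 and 53.3 CPM against 75.6, 74.3 and 36.3 CPM. An A-type response regulator of cytokinin signalling (Cluster-14691.55777) had 8.77, 9.92 and 8.9 CPM against 27.1, 12.8 and 14.6 CPM (log2 fold change 0.98, SE 0.33).

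The 5 CEP precursors were a case where Cd_R replicate 1 parted from its own group. CEP peptides are made in roots and, in Arabidopsis, tell the shoot that nitrogen is short on one side of the root system. Cluster-14691.82632 had 0.174, 0 and 1.83 CPM in CK_R and 0.494, 14.9 and 5.46 CPM in Cd_R. Cluster-14691.1826 had 0.0434, 0.0486 and 0.487 CPM against 0.329, 8.49 and 3 CPM, and Cluster-14691.1727 had 0, 0 and 0.406 CPM against 0.617, 7.08 and 2.1 CPM. Cd_R replicates 2 and 3 were above every other root library in all of the 5, and Cd_R replicate 1 lay within the CK_R range in 4 of the 5. The log2 fold changes ran from 2.36 to 4.48, 3 of them with an unadjusted p under 0.05. Reads may be shared between these unigenes, whose sequences were not compared, so that the 5 are not counted as separate observations.

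Transcription factors were the largest category of candidates, with 17 of 23 tested, 11 values higher in Cd_R and 6 lower. Cluster-14691.27999, annotated as a CRF5-related ethylene-responsive transcription factor, had 4.25, 2.33 and 3.05 CPM in CK_R and 0.905, 0.386 and 0.537 CPM in Cd_R (log2 fold change −2.39, SE 0.46, unadjusted p 0.00139). It was the one candidate gene among the 186 calls of DESeq2. AIL1 (Cluster-15337.0), an AP2-type factor of the family that acts in meristems, had 0.304, 0.535 and 0.203 CPM against 1.36, 1.8 and 1.07 CPM (log2 fold change 2.02, SE 0.50, unadjusted p 0.00521). MYB11 (Cluster-14691.61708), a regulator of flavonol synthesis in Arabidopsis, had 1.35, 0.972 and 0.894 CPM against 0.535, 0.343 and 0.313 CPM, and ERF071 (Cluster-14691.5263) had 0.694, 0.243 and 0.284 CPM against 2.8, 1.46 and 0.76 CPM. All 4 rested on few counts, below 5 CPM in every library. The WRKY factors, which act in stress and defence, showed overlap or were too low to test, with WRKY50 (Cluster-14691.7255) at 0.521, 0.0972 and 2.32 CPM against 4.69, 0.515 and 0.716 CPM, again highest in Cd_R replicate 1 and CK_R replicate 3, and its log2 fold change of 1.00 was −0.67 without Cd_R replicate 1.

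Polyamines are small organic cations that accumulate under stress, and all 4 unigenes of the polyamine list had values lower in Cd_R. The study had picked all of them as lower in treated root than in treated leaf, so that this direction is partly built in. Agmatine deiminase (Cluster-14691.48898), of the route from arginine to putrescine, had 10.6, 10.7 and 2.8 CPM in CK_R and 2.06, 2.19 and 1.92 CPM in Cd_R (log2 fold change −1.97, SE 0.53, unadjusted p 0.00791). CK_R replicate 3 lay close to the Cd_R libraries. A peroxisomal polyamine oxidase (Cluster-14691.48693), which breaks polyamines down, had 187, 145 and 148 CPM against 91.4, 64.7 and 92.8 CPM (log2 fold change −0.95, SE 0.24). The other 2 are listed as agmatine iminohydrolase, another name of agmatine deiminase, which the polyamine list also gives to Cluster-14691.48898. Both overlapped between groups, so that the unigenes of this enzyme did not all separate the treatments. Of these 2, Cluster-14691.45377 had 24.6, 21.5 and 43.1 CPM against 26.4, 7.98 and 14.1 CPM. The candidate list also holds, under polyamines, a putative lysine decarboxylase family protein (Cluster-14691.6139), which the hormone list names cytokinin phosphoribohydrolase, with 0.174, 0.292 and 1.75 CPM against 8.47, 0.429 and 0.984 CPM and a log2 fold change of 2.14 that was −0.07 without Cd_R replicate 1.

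Cell wall candidates did not separate the treatments. Of 6 tested, 3 had values higher and 3 lower in Cd_R, and none had an unadjusted p under 0.05. Cluster-14691.66836 is named pectin methylesterase in the wider cell wall list and a member of the plant invertase and pectin methylesterase inhibitor superfamily among the candidates. Pectin methylesterases free the acid groups of pectin, which can bind metal ions, and their inhibitors oppose this, so that its role is not settled by its names. It had 47.8, 91.5 and 37.9 CPM in CK_R and 95.6, 101 and 82.9 CPM in Cd_R (log2 fold change 0.66, SE 0.35). Alpha expansin 11 (Cluster-14691.76733), which loosens walls, was decided by 1 library, with 20.5, 0.778 and 0.406 CPM against 0.247, 1.12 and 4.97 CPM, and its log2 fold change of −1.78 was 1.83 without CK_R replicate 1. The EG45-like unigene Cluster-14691.8155 had 0.998, 0 and 33.5 CPM against 5.22, 0.129 and 3.58 CPM, and went from −1.95 to 2.54 without CK_R replicate 3. In the wider cell wall list, cinnamoyl-CoA reductase (Cluster-14691.6990), the first enzyme committed to lignin, had 6.47, 5.2 and 2.72 CPM in CK_R and 2.63, 29.8 and 20.6 CPM in Cd_R, with Cd_R replicate 1 below every CK_R library.

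Unigenes counted almost only in a few libraries were kept apart throughout. A unigene was placed in such a class when it had at least 30 counts over the 6 root libraries and at least 90% of its summed CPM in 1 library, or in CK_R replicate 3 and Cd_R replicate 1 together with less than 90% in either. Of 73395 unigenes with 30 counts, 4907 were almost only in Cd_R replicate 1 and 1488 almost only in CK_R replicate 3. In the other 4 root libraries, the same rule found 4, 13, 0 and 6 unigenes. The shared class of CK_R replicate 3 and Cd_R replicate 1 held 2503, and the other pairs of libraries held 663 (CK_R replicates 1 and 3) or 1 to 77. The 3 classes together made up 8898 unigenes (12.1%).

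**Figure D4:**
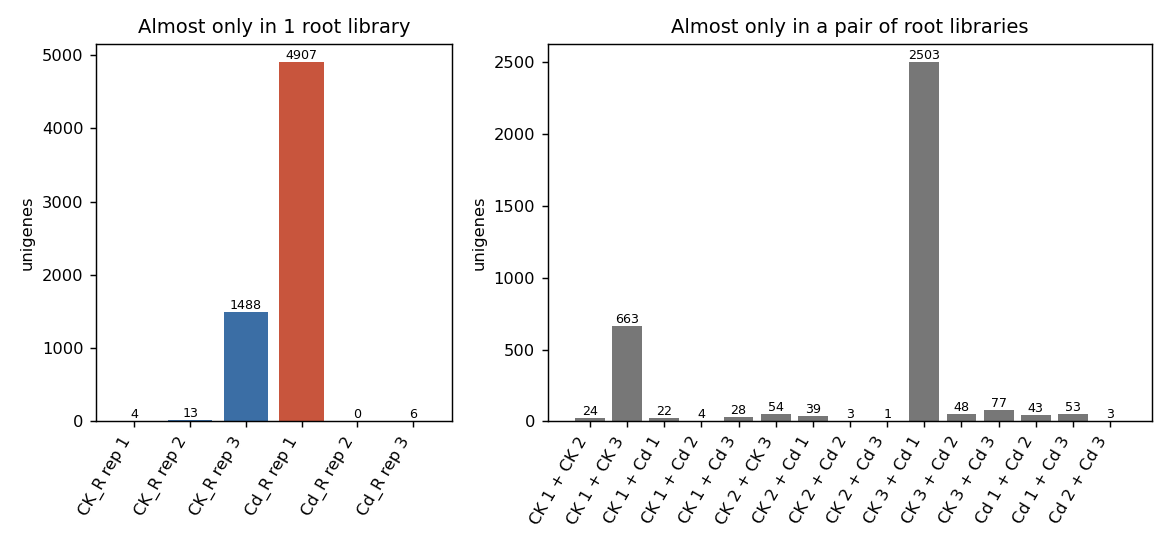
Number of unigenes with at least 90% of their summed CPM in 1 root library (left) or in a pair of root libraries and less than 90% in either (right), among 73395 unigenes with at least 30 counts. Bars start at 0 and the number stands above each bar. Cd_R replicate 1 (4907), CK_R replicate 3 (1488) and their pair (2503) stand out.

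Most of these unigenes were low in counts and had no count in leaf. The median count over the root libraries was 96 in the Cd_R replicate 1 class, 77 in the CK_R replicate 3 class and 70 in the shared class, and edgeR's filter left 17, 95 and 223 of them in the test. In the Cd_R replicate 1 class, 3745 of 4907 had no count in any other root library. No leaf library had a count for 99%, 96.6% and 90.7% of the 3 classes, whereas 5.69% of the other unigenes with 30 counts had none in leaf. The classes of Cd_R replicate 1 and CK_R replicate 3 were not disjoint in presence, since 1181 of the 1488 unigenes of CK_R replicate 3 had a count in Cd_R replicate 1, against 476 in CK_R replicate 1.

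The classes took a visible share of 2 libraries only. In Cd_R replicate 1, its own class held 4.34% of the counts (95% exact binomial interval 4.33 to 4.34%) and the shared class 1.36% (1.35 to 1.36%). In CK_R replicate 3, its own class held 1.63% (1.62 to 1.63%) and the shared class 1.13% (1.13 to 1.14%). The 3 classes together made up 5.77% of Cd_R replicate 1, 2.78% of CK_R replicate 3 and 0.0277 to 0.059% of the other root libraries. Intervals cover counting error only, and the difference between libraries was fixed by the definition of the classes.

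**Figure D5:**
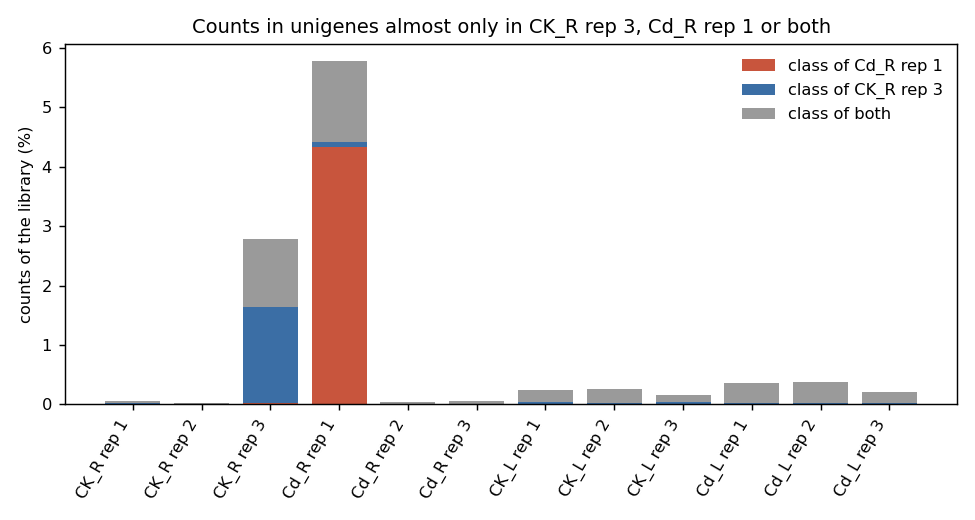
Share of each library's counts (percent, bars start at 0) in unigenes counted almost only in Cd_R replicate 1, CK_R replicate 3 or both, for all 12 libraries. The stacked bars reach 5.77% in Cd_R replicate 1 and 2.78% in CK_R replicate 3, and the shared class reaches 0.369% in a leaf library.

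The unigenes with the most counts in these classes carry no annotation in the tables of the study. Cluster-14691.6189 had 0, 0 and 0.366 CPM in CK_R and 527, 0.429 and 0.134 CPM in Cd_R. Cluster-14691.6177 had no count in CK_R and 382, 0.0429 and 0 CPM in Cd_R, so that a mean of the group hides a single library. On the other side, Cluster-14691.77976 had 0.0434, 0 and 502 CPM in CK_R and 15.5, 0.0429 and 0 CPM in Cd_R. In the shared class, Cluster-14691.47803 had 12.6, 118 and 178 CPM in CK_R and 2930, 76.6 and 75 CPM in Cd_R, was also counted at 133 to 774 CPM in leaf, and turned from a log2 fold change of 3.32 to −0.43 without Cd_R replicate 1.

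The list of the study for protein biosynthesis gives the species of the best database match, and 124 of its unigenes are in the table. It was picked in the same way as the candidate genes, and nearly all its members were higher in treated root than in treated leaf. The best match was not a grass for 68 and a grass for 56. Of the 68, 26 fell into the classes above, 3 almost only in Cd_R replicate 1 and 23 in the shared class, whereas 2 of the 56 did. The best match was the cork oak Quercus suber for 23 of the 68, 17 of them in the classes, and a species outside the land plants, such as oomycetes and algae, for 22, 6 of them in the classes. Summed over the 68 unigenes, the level was 17.8, 28.5 and 94.4 CPM in CK_R and 214, 32.6 and 34.4 CPM in Cd_R, highest in CK_R replicate 3 and Cd_R replicate 1. No count was found for 41, 27 and 2 of the 68 in CK_R replicates 1 to 3 and for 0, 1 and 1 in Cd_R. The 56 with a grass match summed to 1509, 1443 and 1301 CPM in CK_R and 1488, 1806 and 1543 CPM in Cd_R, and these did not set the 2 libraries apart. A best match names the nearest sequence in a database and not the source of a read, and its part in the results above was not tested.

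Among the 68 unigenes, Cd_R replicate 1 was the highest root library for 54 and CK_R replicate 3 for 9. RPL9 (Cluster-14691.3451), a protein of the large ribosomal subunit, had 0, 0 and 0.122 CPM in CK_R and 3.83, 0.172 and 0 CPM in Cd_R. RPS15 (Cluster-14691.80460), of the small subunit, had 0, 0 and 3.9 CPM against 6.42, 0.0429 and 0.403 CPM. The elongation factor eIF5A (Cluster-14691.7595) had 0, 0 and 14.5 CPM against 5.59, 0.172 and 0.716 CPM, and its log2 fold change of −1.16 was 8.63 without CK_R replicate 3, a fitted value against 2 libraries at 0.

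Of the 56 protein biosynthesis unigenes with a grass match, 2 of which are in the shared class, 47 were tested. Values were higher in Cd_R for 39 and lower for 8, a lean that the choice of the list partly builds in. The median log2 fold change was 0.20 beside −0.02 over all unigenes. An unadjusted p under 0.05 was found for 2 of the 47, no larger a share than the 4.62% of all unigenes tested. The RNA helicase ROK1 (Cluster-14691.59290), which acts in the maturation of ribosomal RNA in yeast, had 12.4, 13.1 and 12.7 CPM in CK_R and 19.9, 18.2 and 17.6 CPM in Cd_R (log2 fold change 0.54, SE 0.19). Nop10 (Cluster-14691.65943), part of the complex that places pseudouridine in ribosomal RNA, had 1.91, 1.99 and 1.71 CPM against 3.99, 3.9 and 2.59 CPM (log2 fold change 0.90, SE 0.31). The groups did not overlap on the higher side for 11 of the 47 and on the lower side for 0, beside 5.03% and 4.6% of all unigenes tested. Of the 68 without a grass match, the filter left 20, with 18 values higher in Cd_R and 2 lower and none with an unadjusted p under 0.05.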

How the data were processed

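Poly-A RNA of 6 root pots was sequenced on an Illumina instrument. The authors assembled the reads with Trinity and Corset, without a genome, and deposited RSEM expected counts per unigene, neither normalized nor filtered. Of the values, 88.6% were whole, and all were rounded. Each library held at least 22157170 counts. The submitters' notes also name CASAVA 1.8 and DESeq2.

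Cd_R and CK_R, assigned by the labels, were compared with the quasi-likelihood test of edgeR 4.0.16 in R 4.3.3 (TMM, filterByExpr, no block), and Benjamini-Hochberg adjustment over all unigenes tested. The SE is the absolute log2 fold change divided by the square root of F. Since no unigene passed in edgeR, unadjusted p values only rank unigenes. The spread is that between 3 pots per group, for which an exact permutation test cannot go below 0.1. Intervals are exact binomial (95%). The fit was tested on simulated data.

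Named unigenes were those measured by quantitative PCR, up to 5 per GO group of the root list (lowest p), 3 per category of the candidate genes and per pathway list, the 2 on each side with the lowest p of all, and the most counted of each almost-only class. A few others of these lists were added to show spread after their values were seen (Cluster-14691.17907, Cluster-14691.51441, Cluster-14691.43609, Cluster-14691.49474, Cluster-14691.52687, Cluster-14691.55777, Cluster-14691.5263, Cluster-14691.7255, Cluster-14691.35424 and Cluster-14691.82632). Members and lists were chosen with earlier results of these data known.

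Alternatives were other scalings and filters, DESeq2 1.42.0, limma 3.58.1 (voom) with sample weights, robust estimation, all 12 libraries, a replicate block, other class limits, and libraries left out. Replicate numbers were not taken as pairs of pots. Deviations of same-numbered libraries correlated at −0.332, 0.467 and −0.397, without a common sign, which does not settle whether the numbers mark blocks. Unigene sequences and annotation beyond the tables of the study were not used here.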

Additional observations from a re-analysis of the deposited data

How the results depend on the processing

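edgeR called 0 DEGs under each alternative run with it, and so did voom, among them every library left out in turn, CK_R replicate 3 and Cd_R replicate 1 left out together, and the replicate number as a block (0 calls, with an unadjusted p under 0.05 for 1949 unigenes in place of 2555). DESeq2 called 186, 107 and 2213 as given above. The cause of the difference between tools was not tested. Of the 2213 calls, 1861 were counted almost only in Cd_R replicate 1. None of the 186 and none of the 107 calls belonged to the classes of Cd_R replicate 1, CK_R replicate 3 or both. Of 99 named unigenes, 89 were tested, and 45 passed the limits under some setting of DESeq2.

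The median log2 fold change was 0.143 with library totals, 0.00571 with voom, −0.00166 with all 12 libraries in one fit and −0.000148 with the block, and from −0.0358 without Cd_R replicate 1 to 0.0232 without CK_R replicate 3. The share of unigenes higher in Cd_R was 63.6% with library totals, 49.8% without a filter, 49.7% in DESeq2, 50.6% with voom, 50% with the block, 49.4% without both libraries, and 46.8% to 51.8% with 1 library left out. Groups that did not overlap numbered 4606 higher and 1508 lower with library totals, and 4709 and 4164 without a filter, which tests more unigenes.

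The classes moved with their limits. With a share limit of 80% or 95%, the CK_R replicate 3 class held 2798 or 690 unigenes. With at least 10 counts the classes of Cd_R replicate 1, CK_R replicate 3 and both held 8565, 3356 and 4768, and with at least 100 counts 2385, 612 and 900. The share of counts of Cd_R replicate 1 in its own class was 5.06% and 4.19% at the limits of 80% and 95%, and 4.61% and 3.73% at 10 and 100 counts. For CK_R replicate 3 and its class these were 2.3%, 0.601%, 1.75% and 1.45%. The shared class took 0.996%, 1.57%, 1.23% and 0.888% of CK_R replicate 3 and 1.61%, 0.553%, 1.42% and 1.25% of Cd_R replicate 1. Protein biosynthesis unigenes in the classes numbered 40 without and 6 with a grass match at 80%, and 9 and 0 at 95%. With the split drawn at the land plants, the classes held 6 with a match outside them and 22 with a match inside.

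The log2 fold change changed sign under some alternative for 17 of the 89. With the block, it became 0.19 for Cluster-14691.8155, 0.25 for Cluster-14691.10242, 1.87 for Cluster-14691.7595 and −0.01 for Cluster-14691.52687, and no call changed. With voom, Cluster-14691.7595 had 1.98 and Cluster-14691.52687 −0.06, without a filter Cluster-14691.51441 had −0.00 in place of 0.00, and with library totals Cluster-14691.35187 had 0.10. Without both libraries, Cluster-14691.8155 had 1.85, Cluster-27204.0 −0.01 and Cluster-14691.52687 −0.23. With 1 library left out, the range was −2.63 to 2.54 for Cluster-14691.8155, −6.55 to 0.89 for Cluster-14691.12641, −9.23 to 2.43 for Cluster-14691.10242 and −3.44 to 8.63 for Cluster-14691.7595, each from without Cd_R replicate 1 to without CK_R replicate 3. In the same order of libraries, it was −0.28 to 1.12 for Cluster-14691.45899, −0.07 to 3.81 for Cluster-14691.6139, −0.41 to 4.00 for Cluster-14691.81808, −2.12 to 5.99 for Cluster-14691.9539, −2.03 to 5.58 for Cluster-14691.9953, −0.43 to 3.99 for Cluster-14691.47803, −1.43 to 3.26 for Cluster-14691.17907, −0.76 to 0.80 for Cluster-14691.51441 and −0.67 to 2.64 for Cluster-14691.7255. Cluster-14691.76733 ranged from −3.40 without Cd_R replicate 3 to 1.83 without CK_R replicate 1, and Cluster-14691.52687 from −0.15 without CK_R replicate 1 to 0.32 without CK_R replicate 2. The other 72 tested kept their sign. Same-numbered libraries deviated together for replicate 2 only, and whether the numbers mark blocks is not known, so the block tests only a shared number. At 3 pots per group and about 23.4 counts per CPM, unigenes below 1 CPM rest on few counts.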
